A study of Homo sapiens with 8 samples.

Results

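The genes described here encode matrix metalloproteases (MMPs), membrane-anchored ADAM proteases, secreted ADAMTS proteases, the ADAMTS-like proteins and the tissue inhibitors of metalloproteases (TIMPs). They were taken by name. A gene entered when its symbol was MMP, ADAM, ADAMTS, ADAMTSL or TIMP followed by a number, whatever its measured values. Levels served only to choose between the rows of ADAM12. The set itself was chosen with earlier results of these data known. The day 0 table held 60 such genes among 27820 single gene symbols, and the day 3.5 table held 61 among 28821. The 61 genes were 17 MMPs, 18 ADAMs, 19 ADAMTS genes, 4 ADAMTSL genes and 3 TIMPs.

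The cells were H9, an established line of human embryonic stem cells, cultured on gels in medium conditioned by feeder cells. The soft gel had a stiffness of 400 Pa and the stiff gel one of 60 kPa. Day 0 cells were undifferentiated, and day 3.5 cells had been induced towards mesoderm with bFGF, Activin, VEGF and BMP4. There were 8 RNA-seq libraries, 2 in each of 4 groups, all of the same line and without genetic change named in the labels. The labels leave unsaid whether a group's libraries were separate cultures, so p-values reflect just how far these libraries varied, possibly for technical reasons. Each value is the authors' FPKM (fragments mapped to a gene, scaled to its transcript length and to the library's mapped fragments), 1 per group, so read depth is unknown and no SD can be given. FPKM is a level per length and allows levels of different genes to be set side by side. Below, values in pairs are given in the order soft gel, stiff gel.

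MMPs, ADAMs and ADAMTS proteases are zinc enzymes of the metzincin group. MMPs are made as inactive proenzymes and cut collagens, gelatin and other matrix proteins once activated. Many ADAMs shed the outer part of membrane proteins such as growth factors and Notch ligands and receptors, while some members lack a working catalytic site. ADAMTS proteases cut proteoglycans, procollagens and other secreted proteins, and TIMPs bind and block the active enzymes. In the early embryo such enzymes take part in the remodelling of basement membrane and matrix as mesoderm cells leave the epiblast.

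In the induced cells, 2 of these genes were called in the authors' deposited table, ADAMTS9 and ADAMTS18, and both were higher on the soft gel. The gelatinase gene MMP2 and its membrane-bound activator MMP14 lay on the same side, at 3.02 and 2.0 times their level on the stiff gel, without passing the authors' threshold. In undifferentiated cells no gene of the set was called. The inhibitor gene TIMP1 and the sheddase gene ADAM10 were among the highest levels in all 4 groups.

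At day 0, 32 of the 60 genes reached 1 FPKM in a group and 27 reached it in both groups; 21 were below 0.5 FPKM in both. At day 3.5, 40 of 61 reached 1 FPKM in a group, 33 in both, and 14 were below 0.5 in both. The genes that passed through only 1 group at day 3.5 were ADAM32, ADAMTS16, ADAMTS17, ADAMTSL2, MMP19, MMP28 and TIMP3. At day 0 they were ADAM11, ADAM28, ADAMTS6, ADAMTS8 and MMP19. Such genes had to differ between the gels to be counted this way.

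**Figure D1:**
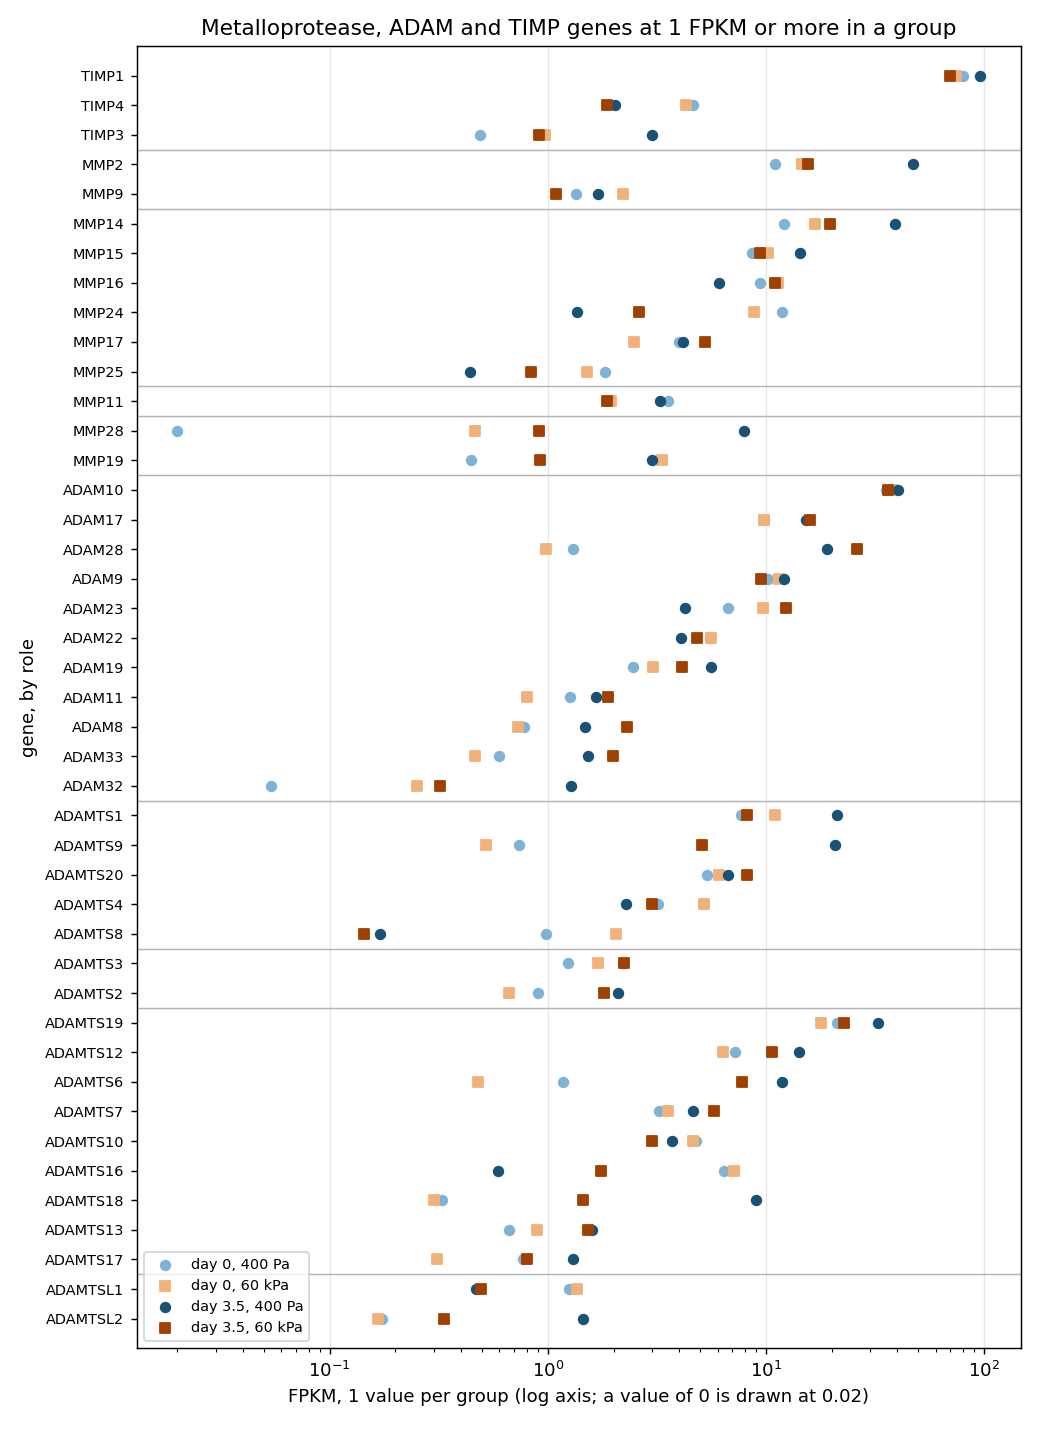
FPKM of each gene of the set that reached 1 FPKM in a group (log axis), ordered by role and separated by lines; circles are 400 Pa, squares 60 kPa, light symbols day 0 and dark symbols day 3.5, with 1 value per group. The day 0 value of MMP28 that is listed at 0 is drawn at the left end. TIMP1 lies highest in all 4 groups. For MMP2, MMP14, ADAMTS9, ADAMTS18 and MMP28 the day 3.5 value on 400 Pa is the highest of the 4. Both day 3.5 values of ADAMTS9 lie above both of its day 0 values.

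Calls were taken from the authors' deposited tables where q was below 0.05, a q-value being a p-value adjusted over all gene loci they tested. Changes are differences of log2(FPKM + 1) as 400 Pa minus 60 kPa, so positive means higher on 400 Pa, and the change of low genes is understated. The standard error (SE) was derived by dividing the log2 ratio of the authors' deposited table by its test statistic, an approximation on the scale without pseudocount. At day 3.5, 2 of 40 tested genes of the set with at least 1 FPKM in a group were called, beside 1.45% of all 14990 genes counted the same way. Both lay on the soft side (5.0% of the set, beside 1.21% of all genes) and none on the stiff side (0.24% of all genes). Without adjustment, 8 of the 40 had p below 0.05 in the authors' deposited table, beside 6.12% of all genes. Of these, 7 were higher on 400 Pa, beside 4.16% of all genes, and 1 was higher on 60 kPa, beside 1.97%. Of these 7, ADAM32, ADAMTSL2 and MMP28 passed the minimum only on the soft gel. The median change of the 40 genes was 0.28, and that of all tested genes was 0.04. Over all 61 listed genes, without a minimum, it was 0.08. Of the 40, 25 lay above 0 (62.5%), beside 54.4% of all genes. ADAM32, ADAMTS17, ADAMTSL2, MMP19, MMP28 and TIMP3 passed the minimum only on the soft gel and ADAMTS16 only on the stiff gel. The minimum itself fixed their side. The share called rests on 2 genes.

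Summed levels of cell type markers also differed between the gels in the induced cultures. At day 3.5 the summed FPKM of the 5 mesoderm markers measured here of a list of 6 (T, MIXL1, EOMES, HAND1, KDR) was 101 on 400 Pa and 35.8 on 60 kPa. HAND1, at 53.8 and 6.07, held most of the difference. The sum of 6 of 7 fibroblast markers was 254 and 67.1. LUM (136 and 4.69) and DCN (38.7 and 3.79) carried most of the soft-gel sum, while COL1A2 (18.2 and 24.2) and THY1 (25.5 and 26.8) were not higher on the soft gel. The sum of 6 amnion and trophoblast markers was 181 and 38.0. VTCN1 (81.3 and 7.44) and ISL1 (47.7 and 9.44) held most of the difference, while CGA was higher on 60 kPa (0.242 and 1.03). The sum of 6 pluripotency markers was 447 and 719, and that of 5 neuroectoderm markers was 95.8 and 237. SOX2 (54.0 and 164) and LIN28A (131 and 239) held most of the pluripotency difference. POU5F1 was at 114 and 122, NANOG at 2.46 and 3.16, and ZFP42 was higher on 400 Pa (15.3 and 10.2). None of these 6 was called in the authors' deposited table. It held calls on the stiff side for OTX2 (69.3 and 152), HESX1 and LHX5, and PAX6 was at 17.2 and 19.6. On the soft side it held calls for HAND1, LUM, DCN, VTCN1, ISL1, COL3A1 (17.7 and 0.388) and KRT7 (30.7 and 6.94). Endothelial and blood markers stayed low, with sums of 2.26 and 0.691 for 4 of 5 genes. Of these lists, SOX1 and PTPRC were at or below 0.1 FPKM in both groups at day 3.5. At day 0 the pluripotency sum was 1296 and 1382, and the mesoderm sum was 9.68 and 14.1. The neuroectoderm sum was 154.5 and 89.9 at that day, and the fibroblast sum was 154 and 208, both in the opposite order to day 3.5. THY1 alone, at 135 and 191, held most of that fibroblast sum and set its order. COL1A1 (9.32 and 8.95) and COL1A2 (9.45 and 7.75) were slightly higher on 400 Pa at day 0. The amnion and trophoblast sum was 14.8 and 7.32, and the authors' deposited table held a call for TFAP2A on the soft side. At that day COL3A1, DCN, LUM, EOMES, CGA, SOX1, PTPRC and TAL1 were at or below 0.1 FPKM. The part of these markers in the protease results was not tested. In such bulk samples, fewer cells of a type and less RNA per cell cannot be told apart.

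Of the inhibitors, none was called on either day in the authors' deposited tables. TIMP1, a secreted inhibitor of most MMPs, was at 80.1 FPKM (400 Pa) and 74.2 FPKM (60 kPa) before induction, and at 96.2 and 69.5 at day 3.5. It was the highest of the set in every group, and its values lie close together, with a day 3.5 change of 0.46 (SE 0.81). TIMP3, an inhibitor that stays bound to the matrix and also blocks several ADAM and ADAMTS enzymes, was at 0.488 and 0.966 FPKM in undifferentiated cells and at 3.01 and 0.911 in induced cells. Only its day 3.5 value on the soft gel exceeded 1 FPKM. Its change there was 1.07 (SE 1.22), with p = 0.0713 and no call in the authors' deposited table. TIMP4 was at 4.63 and 4.32 FPKM at day 0 and lower on both gels at day 3.5, at 2.04 and 1.88, so the gels differed little (changes of 0.08 with SE 0.61 and 0.08 with SE 1.24). TIMP2, which also helps MMP14 to activate MMP2, is merged with DDC8 in the authors' tables and is not counted in the set. The merged locus was at 3.20 and 3.18 FPKM in undifferentiated cells and at 5.42 and 5.21 in induced cells. All 3 TIMP genes in the set overlap a synapsin gene on the opposite strand (SYN1, SYN3 and SYN2). Whether counting used strand is not given in the sources used here. SYN3 was at 6.23 and 6.99 FPKM at day 3.5 (p = 0.847 in the authors' deposited table). Its part in the TIMP3 values was not tested.

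The gelatinases cut denatured collagen and basement membrane collagen. MMP2 was at 11.04 FPKM (400 Pa) and 14.7 FPKM (60 kPa) before induction, and at 47.1 and 15.6 at day 3.5. The induced cells on the soft gel thus stood apart from the other 3 groups, which lay between 11.04 and 15.6. Its changes were -0.38 (SE 0.74) at day 0 and 1.54 (SE 0.79) at day 3.5. In the authors' deposited table MMP2 had p = 0.00485 and q = 0.214 at day 3.5, so it was not called. MMP9, the other gelatinase, was low throughout, at 1.35 and 2.21 FPKM in undifferentiated cells and at 1.69 and 1.09 in induced cells. Its changes were -0.45 (SE 1.10) and 0.36 (SE 1.29).

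The membrane-type MMPs act at the cell surface, and all 6 listed reached 1 FPKM in a group. MMP14, the type I collagenase of the cell surface and activator of pro-MMP2, was at 12.1 FPKM (400 Pa) and 16.9 FPKM (60 kPa) at day 0. At day 3.5 it was at 39.2 and 19.6, again with the highest value on the soft gel. The changes were -0.45 (SE 0.41) and 0.96 (SE 0.53), with p = 0.0646 and p = 0.0017 in the authors' deposited tables; q was 0.109 at day 3.5. Both MMP2 and MMP14 were therefore nominally lower on the soft gel before induction and higher on it afterwards. MMP15 had the same order of values, at 8.67 and 10.3 FPKM and then at 14.4 and 9.35 (day 3.5 change 0.57, SE 0.77). The other 4 membrane-type genes lay below 0 at day 3.5. MMP16 was at 9.38 and 11.4 FPKM in undifferentiated cells and at 6.12 and 11.05 in induced cells, with a change of -0.76 (SE 0.93). In the authors' deposited table its p was 0.0581 at day 3.5. MMP24, best known from neural tissue, was at 11.9 and 8.86 FPKM before induction and at only 1.36 and 2.60 at day 3.5. MMP17 was at 3.99 and 2.48, then at 4.16 and 5.23, and MMP25 at 1.82 and 1.51, then at 0.441 and 0.838. MMP17 and MMP25 carry a lipid anchor in place of a transmembrane segment.

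Among the other secreted MMPs, only MMP11, MMP19 and MMP28 reached 1 FPKM. MMP28 (epilysin) was listed at 0 on 400 Pa and at 0.464 FPKM on 60 kPa before induction, and its induced values were 7.89 and 0.913. The high value was again that of the induced cells on the soft gel, with a change of 2.22 (SE 1.82). It had p = 0.00435 and q = 0.201 in the authors' deposited table. MMP19 was at 0.445 and 3.34 FPKM in undifferentiated cells and at 2.996 and 0.921 in induced cells. It passed 1 FPKM only on 60 kPa at day 0 and only on 400 Pa at day 3.5, so the minimum itself fixed its side on both days. Its changes of -1.59 and 1.06 come with SEs of 4.13 and 4.49, and at day 0 its p was 0.0193 in the authors' deposited table. MMP11 (stromelysin 3), which leaves the cell already activated by furin, was at 3.56 and 1.95 FPKM in undifferentiated cells and at 3.27 and 1.86 in induced cells. It was one of few with nearly the same values on both days (changes 0.63 with SE 1.36 and 0.58 with SE 1.78). The collagenases MMP1 and MMP13 and the stromelysins MMP3 and MMP10, which lie in the MMP cluster of chromosome 11, stayed below 1 FPKM in all groups. The highest of their values was that of MMP3 at 0.852 FPKM on 60 kPa at day 3.5, against 0.0169 on 400 Pa. MMP12 and MMP21 were below 0.1 FPKM in all groups.

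**Figure D2:**
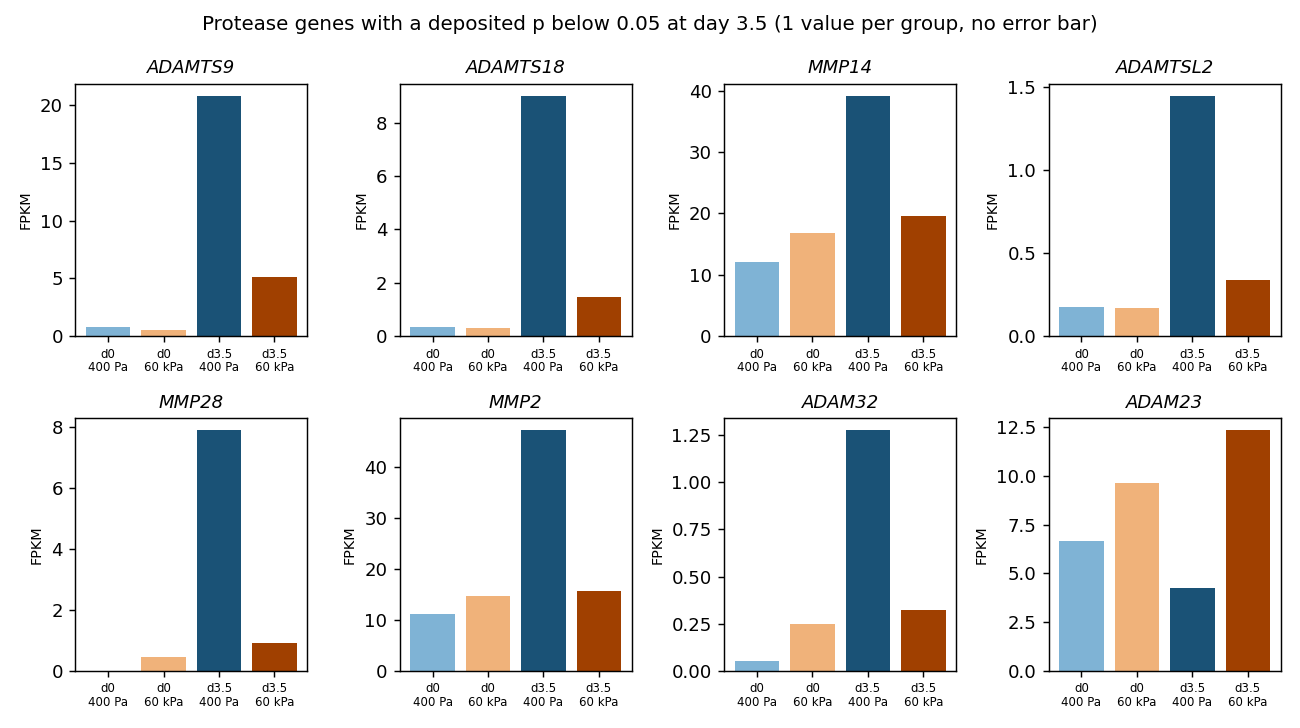
FPKM in the 4 groups (day 0 light, day 3.5 dark; 400 Pa blue, 60 kPa orange) of the 8 genes with an unadjusted p below 0.05 at day 3.5 in the authors' deposited table; each bar is 1 value per group, without an error bar, and the axes differ between panels. In 7 of the panels the day 3.5 bar of 400 Pa is the highest, and in that of ADAM23 the day 3.5 bar of 60 kPa is.

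ADAMTS9 and ADAMTS18 were the genes called. ADAMTS9 cuts the proteoglycans versican and aggrecan and also takes part in the formation of cilia. It was at 0.738 FPKM (400 Pa) and 0.523 FPKM (60 kPa) before induction, and at 20.8 and 5.07 at day 3.5. Both induced groups were above both undifferentiated groups, and the soft gel held 4.11 times the level of the stiff gel. The change was 1.85 (SE 0.79), with p = 5e-05, the smallest p-value of that table, and q = 0.00783 in the authors' deposited table. Its locus spans chromosome 3, 64501333 to 64997143 on hg19. The antisense genes ADAMTS9-AS1 and ADAMTS9-AS2 lie in the same locus. ADAMTS9-AS1 was at 3.28 and 0.761 FPKM at day 3.5 and ADAMTS9-AS2 at 0.852 and 0.202, neither of them called in the authors' deposited table. Without a known strand setting, reads of ADAMTS9 and of its antisense genes cannot be told apart.

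ADAMTS18, a secreted protease without a widely established main substrate, was at 0.326 and 0.300 FPKM at day 0 and was not tested by the authors there. At day 3.5 it was at 9.03 on 400 Pa and 1.45 on 60 kPa, a ratio of 6.23. The change was 2.03 (SE 1.43), with p = 5e-05 and q = 0.00783 in the authors' deposited table. Its test statistic in the authors' deposited table, 1.84 in size, is too small for a two-sided normal test at 0.05, so this call and its implied error do not go together. For ADAMTS9 the size of the statistic was 2.58 in the authors' deposited table. The locus of ADAMTS18 spans chromosome 16, 77224732 to 77478233 on hg19. GENCODE release 29 places AC009139.1 and AC025284.1 across ADAMTS18 on the opposite strand and AC009139.2 on the same strand. In the ADAMTS18 locus, RP11-538I12.3 was at 1.06 and 0.238 FPKM at day 3.5 and RP11-538I12.2 at 0.891 and 0.406. Their part in the ADAMTS18 values was not tested. The same release places MMP2-AS1 across MMP2 and TAF15 across MMP28 on the opposite strand. It places no small RNA gene inside ADAMTS9, ADAMTS18, MMP2, MMP14 or MMP28.

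The other proteoglycan-cutting ADAMTS genes had no call in the authors' deposited tables. ADAMTS1, a versican-cutting protease, was at 7.72 and 11.005 FPKM in undifferentiated cells and at 21.1 and 8.21 in induced cells. As for MMP2 and MMP14, the induced cells on the soft gel had the highest value, with changes of -0.46 (SE 1.03) and 1.26 (SE 1.30). ADAMTS20 lay between 5.37 and 8.15 FPKM in the 4 groups. ADAMTS4 (aggrecanase 1) was at 3.18 and 5.18 and then at 2.29 and 2.996 FPKM, with a day 0 change of -0.56 (SE 2.2). ADAMTS8 was at 0.982 and 2.06 FPKM at day 0, with p = 0.0295 in the authors' deposited table and a change of -0.62 (SE 0.68). It was under 0.2 FPKM in both induced groups. ADAMTS5 and ADAMTS15 were below 1 FPKM in all groups.

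Procollagen N-proteinases trim the amino end of fibrillar procollagens. ADAMTS2 ranged from 0.661 to 2.09 FPKM and ADAMTS3 from 1.23 to 2.24, with the higher values on both gels at day 3.5, and ADAMTS14 stayed below 0.25. Of the remaining ADAMTS genes, ADAMTS19 was the highest, at 21.2 and 18.0 FPKM in undifferentiated cells and at 32.6 and 22.8 in induced cells (change 0.50, SE 0.81). ADAMTS12 was at 7.18 and 6.38 FPKM and then at 14.2 and 10.6. ADAMTS6 was at 1.17 and 0.476 FPKM in undifferentiated cells and at 11.9 and 7.80 in induced cells, higher in both induced groups. Its changes between the gels were 0.56 (SE 2.56) and 0.55 (SE 0.75). ADAMTS16 went the other way between the days, at 6.45 and 7.12 FPKM in undifferentiated cells and at 0.588 and 1.75 in induced cells. Its day 3.5 change was -0.79 (SE 1.40), with p = 0.0696 in the authors' deposited table. ADAMTS13, the protease of von Willebrand factor, was at 0.660 and 0.894 FPKM in undifferentiated cells and at 1.60 and 1.52 in induced cells.

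ADAMTS-like proteins share the ancillary domains of the family but carry no protease domain. ADAMTSL2, which binds fibrillin and latent TGF-beta binding protein, was at 0.173 and 0.166 FPKM in undifferentiated cells and at 1.45 and 0.335 in induced cells. Its change was 0.87 (SE 0.91), with p = 0.0027 and q = 0.150 in the authors' deposited table. ADAMTSL1 was at 1.25 and 1.36 FPKM at day 0 and below 0.5 on both gels at day 3.5. ADAMTSL3 stayed below 1 FPKM and ADAMTSL5 below 0.5.

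None of the ADAM genes was called on either day in the authors' deposited tables. ADAM10, the sheddase of Notch receptors and cadherins, was at 35.4 and 38.1 FPKM in undifferentiated cells and at 40.2 and 36.4 in induced cells. ADAM17, which sheds TNF and EGF receptor ligands, was at 9.82 and 9.75 and then at 15.3 and 15.9. For both the gels lay close together, with changes of -0.10 (SE 0.56) and 0.14 (SE 0.70) for ADAM10 and of 0.01 (SE 0.44; -0.02 when centred on the median gene) and -0.05 (SE 0.53) for ADAM17. ADAM9 was similarly even, between 9.54 and 12.1 FPKM. ADAM28 was at 1.31 and 0.985 FPKM in undifferentiated cells and at 19.1 and 26.1 in induced cells, so that both induced groups were far above both undifferentiated ones. Its day 3.5 change was -0.43 (SE 0.77), and the gel with the higher value was the stiff one.

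ADAM23, a member without protease activity that binds integrins and LGI proteins and is known from neurons, was at 6.68 and 9.67 FPKM at day 0. At day 3.5 it was at 4.24 on the soft gel and 12.3 on the stiff gel, and it was the only gene of the set with an unadjusted p below 0.05 on the stiff side at that day in the authors' deposited table. The change was -1.35 (SE 1.33), with p = 0.0254 and q = 0.624 in the authors' deposited table. ADAM22 and ADAM11, its relatives that also lack protease activity, were at 4.09 and 4.82 FPKM and at 1.67 and 1.89 at day 3.5. For ADAM11 the change was 0.33 (SE 0.996) at day 0 and -0.11 (SE 1.22) at day 3.5. ADAM8 was at 1.48 and 2.32 FPKM at day 3.5 (change -0.42, SE 1.55) and ADAM33 at 1.52 and 1.98. ADAM19 was at 5.58 and 4.13 FPKM. ADAM32, a gene known from testis, was at 1.28 and 0.320 FPKM (change 0.79, SE 2.28), with p = 0.0348 and q = 0.735 in the authors' deposited table. Of the 11 ADAM genes tested at day 3.5, 7 lay below 0, whereas 7 of 10 MMP genes and 10 of 15 ADAMTS genes lay above it. Of all genes, 54.4% lay above 0. Among those counted, ADAM32, MMP19, MMP28 and ADAMTS17 passed the FPKM minimum only on the soft gel and ADAMTS16 only on the stiff gel. The minimum itself fixed their side. The difference between these families was not tested.

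Summed over each family, the MMP genes held 64.6 and 74.3 FPKM in undifferentiated cells and 129.5 and 70.3 in induced cells. MMP2 and MMP14 held most of the soft-gel sum at day 3.5. The ADAMTS genes held 66.6 and 69.8 FPKM and then 136 and 85.01. The ADAM genes held 74.8 and 81.3 and then 108 and 117, and the TIMP genes 85.3 and 79.5 and then 101 and 72.3. The MMP, ADAMTS and TIMP sums were thus higher on the soft gel after induction, and the ADAM sum was not.

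At day 0 none of the 32 tested genes with at least 1 FPKM in a group was called in the authors' deposited table, beside 0.141% of all 14195 genes (0.0775% higher on 400 Pa and 0.0634% higher on 60 kPa). At an unadjusted p below 0.05 there were 2, MMP19 and ADAMTS8, both higher on 60 kPa, beside 1.94% of all genes in either direction, 0.958% on that side and 0.979% on the soft side. Both passed the FPKM minimum only on 60 kPa, so the minimum itself fixed their side. The median change was -0.10, that of all genes 0.02, and 19 of the 32 lay below 0, beside 46% of all genes. ADAM11, ADAM28 and ADAMTS6 passed the minimum only on 400 Pa, which fixed their side as well. The median implied SE was 0.81 at day 0 and 1.12 at day 3.5, and a missing call does not show equal levels.

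The change between the gels was then compared between the days. Of 29 genes of the set tested by the authors and at 1 FPKM or more in a group on both days, 9 lay below 0 at day 0 and above it at day 3.5, 5 the other way, 7 above 0 on both days and 8 below it on both. Opposite signs made up 48.3% of these genes and 53.2% of all 13226 genes compared. MMP19 passed the minimum only on 60 kPa at day 0 and only on 400 Pa at day 3.5, so the minimum fixed both its signs. It also fixed the day 0 signs of ADAM11, ADAM28 and ADAMTS6, which passed only on 400 Pa. The day 3.5 sign of ADAMTS16, which passed only on 60 kPa, was fixed in the same way. The difference of the deposited log2 ratios, tested with the implied errors (normal approximation, Benjamini-Hochberg adjustment over all 13226), passed for 11 genes, none of them in the set. The largest ratio of difference to error in the set was that of MMP14, with a difference of 1.48 (SE 0.67). It was the only one with an unadjusted p below 0.05, beside 0.953% of all genes compared, and its adjusted value did not pass. For MMP2 the difference was 2.01 (SE 1.09). The implied errors do not match the p-values they came with. At day 3.5 the authors' deposited table pairs a statistic of 1.89 in size with p = 0.0017 for MMP14, and one of 2.02 with p = 0.00485 for MMP2. The test between days therefore says little about single genes, and the opposite signs of MMP2, MMP14 and ADAMTS1 are given as a description only.

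**Figure D3:**
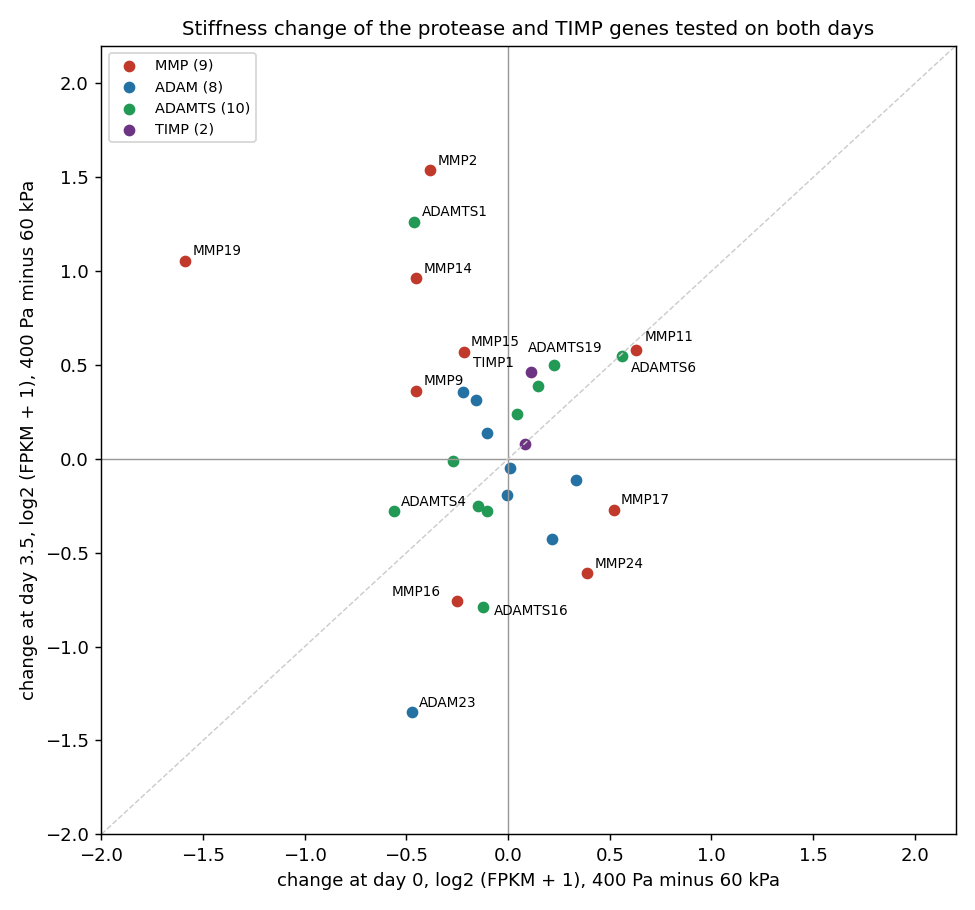
Change between the gels, log2(FPKM + 1) as 400 Pa minus 60 kPa, at day 0 (x axis) and day 3.5 (y axis) for the 29 genes tested and at 1 FPKM or more in a group on both days, coloured by family; the dashed line marks equal changes. MMP2, MMP14, MMP19 and ADAMTS1 lie farthest up among the 9 genes left of 0 and above 0, and ADAM23 is the lowest point. The FPKM minimum fixed both signs of MMP19.

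Each day has a table of its own, so levels of the days are only set side by side. Of the 43 genes with at least 1 FPKM in a group that were listed on both days, the median difference of log2(FPKM + 1), day 3.5 minus day 0, was 0.48 on 400 Pa and 0.20 on 60 kPa. Without the minimum, over the 60 genes listed on both days, it was 0.25 and 0.09. It was 0.00 and 0.01 for the 15814 genes that reached 1 FPKM. Differences above 1 were held by 12 of the 43 genes on 400 Pa and by 4 on 60 kPa. Over all genes these were 1479 and 1019 of the 15814. Of the genes named below, MMP28, TIMP3, ADAM32 and ADAMTSL2 reached 1 FPKM only at day 3.5 on 400 Pa. ADAMTS9, ADAMTS18 and ADAM33 reached it only at day 3.5, and ADAMTS8 only at day 0 on 60 kPa. MMP19 reached it on 400 Pa only at day 3.5 and on 60 kPa only at day 0. On the gels where they reached it, the minimum itself fixed the direction of their differences. ADAM28 (3.12 on 400 Pa and 3.77 on 60 kPa), ADAMTS6 (2.57 and 2.58) and ADAMTS9 (3.65 and 1.99) were higher at day 3.5 on both gels by more than 1. MMP28 (3.15 and 0.39), ADAMTS18 (2.92 and 0.91), MMP2 (2.0 and 0.08) and MMP14 (1.62 and 0.21) exceeded 1 only on the soft gel. So did MMP19, TIMP3, ADAMTS1, ADAM32 and ADAMTSL2, and on 60 kPa ADAM33 did (1.03). Lower by more than 1 on both gels were MMP24 (-2.45 and -1.45) and ADAMTS16 (-2.23 and -1.56). On 60 kPa this also held for ADAMTS8 (-1.42) and MMP19 (-1.18). These were 2 of the 43 genes on 400 Pa and 4 on 60 kPa, and 933 and 645 of the 15814 genes.

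**Figure D4:**
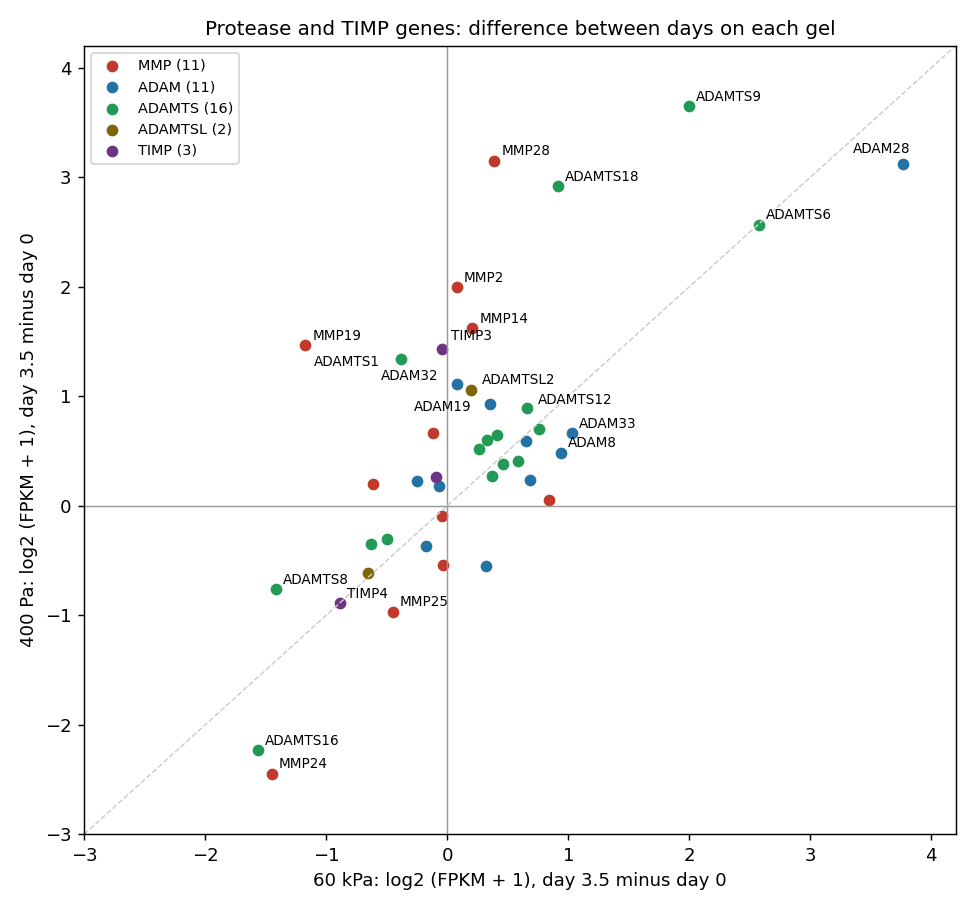
Difference of log2(FPKM + 1), day 3.5 minus day 0, on 60 kPa (x axis) and on 400 Pa (y axis) for the 43 genes with at least 1 FPKM in a group; each point is a gene coloured by family, and the dashed line marks equal differences. ADAM28 and ADAMTS6 lie near the line, while MMP28, ADAMTS18, MMP2 and MMP14 lie well above it.

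Promoter sequence was examined as a property that the choice of genes did not use. RefSeq promoters on GRCh38.p14 were matched by symbol for 35 of the 61 genes (not for MMP1, MMP2, MMP3, MMP9, MMP12, MMP13 or ADAMTS9, among others), and the 250 bases before the annotated start were read. The median GC content was 72.4% in these 35 promoters and 58% in all 27305. A GC box (GGGCGG on either strand) was found in 27 of the 35 (77.1%) and in 42.3% of all promoters. A TATA box (TATAAA, either strand) was found in 4 (11.4%, beside 11.1% of all). An AP-1 site (TGANTCA, which is its own reverse complement) was found in 2, MMP10 and ADAMTS12 (5.71%, beside 6.60%). A TEAD site (GGAATG, either strand) was found in 4 (11.4%, beside 11.9%) and an E-box (CANNTG, its own reverse complement) in 19 (54.3%, beside 62.2%). None of these motifs contains another, and matches were counted independently. The 4 promoters with a GC content under 50%, those of ADAM20, ADAM21, ADAM29 and MMP10, belong to genes whose highest value was at most 0.233 FPKM. Of the other 31 genes, 26 reached 1 FPKM in a group. Levels by GC content were not examined over all genes, so whether this is particular to the set was not tested. A match is a run of letters, not a measured site. Shown here are ADAMTS18 (called at day 3.5), MMP14 (the soft-side membrane MMP), TIMP1 (the highest gene), ADAM23 (the stiff-side gene) and, for contrast, the AT-rich promoter of the low gene MMP10. Capitals mark GC boxes, and in MMP10 the AP-1 site and then the TATA box.
ADAMTS18, chr16:77435035-77435284, minus strand: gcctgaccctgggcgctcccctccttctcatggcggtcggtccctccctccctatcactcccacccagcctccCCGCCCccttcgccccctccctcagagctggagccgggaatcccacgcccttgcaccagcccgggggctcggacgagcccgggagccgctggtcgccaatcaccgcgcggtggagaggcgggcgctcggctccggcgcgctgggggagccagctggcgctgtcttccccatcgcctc
MMP14, chr14:22836335-22836584, plus strand: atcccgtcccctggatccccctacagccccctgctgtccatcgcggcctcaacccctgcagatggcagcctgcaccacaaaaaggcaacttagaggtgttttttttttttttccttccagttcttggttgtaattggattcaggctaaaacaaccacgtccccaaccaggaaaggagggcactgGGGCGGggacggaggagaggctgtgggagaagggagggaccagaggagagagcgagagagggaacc
TIMP1, chrX:47582186-47582435, plus strand: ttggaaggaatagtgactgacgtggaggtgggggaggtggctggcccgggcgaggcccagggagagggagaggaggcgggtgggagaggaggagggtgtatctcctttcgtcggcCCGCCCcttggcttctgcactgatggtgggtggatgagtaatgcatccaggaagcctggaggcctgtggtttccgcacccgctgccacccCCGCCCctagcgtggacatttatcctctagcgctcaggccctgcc
ADAM23, chr2:206443282-206443531, plus strand: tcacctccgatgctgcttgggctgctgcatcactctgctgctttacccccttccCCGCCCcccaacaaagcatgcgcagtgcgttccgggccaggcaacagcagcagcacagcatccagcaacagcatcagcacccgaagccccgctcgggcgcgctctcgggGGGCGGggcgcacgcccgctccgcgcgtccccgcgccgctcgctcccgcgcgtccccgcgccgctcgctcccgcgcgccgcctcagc
MMP10, chr11:102780629-102780878, minus strand: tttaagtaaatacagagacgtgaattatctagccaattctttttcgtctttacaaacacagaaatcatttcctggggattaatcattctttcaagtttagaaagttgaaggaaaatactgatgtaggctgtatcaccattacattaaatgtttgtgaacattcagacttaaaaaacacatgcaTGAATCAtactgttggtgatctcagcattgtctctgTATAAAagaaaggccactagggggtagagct
The last line differs from the others in having no GC box, and none of the first 4 holds a TATA box or an AP-1 site.

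Genes that act with these proteases were read from lists of 54 genes (activating proteases and serpins, other inhibitors and inducers, partners of ADAM10 and ADAM17, other metzincins, matrix substrates and shed substrates). At day 3.5, 42 were tested with at least 1 FPKM in a group, 22 lay above 0, and the authors' deposited table held 1 call on each side. Of all genes, 54.4% lay above 0, 1.21% were called on the soft side and 0.24% on the stiff side. The call on the soft side was FURIN, the convertase that removes the prodomain of MMP14, MMP11, MMP28 and most ADAM and ADAMTS proteases. FURIN was at 6.08 FPKM (400 Pa) and 6.55 FPKM (60 kPa) before induction, and at 21.9 and 7.61 at day 3.5 (change 1.41, SE 0.76). It had q = 0.00783 in the authors' deposited table at day 3.5. Its highest value was thus in the same group as those of MMP2, MMP14, MMP28 and ADAMTS9. The part of FURIN in the protease results was not tested. The call on the stiff side was VWF, the substrate of ADAMTS13, at 0.873 and 6.12 FPKM (change -1.93, SE 1.58).

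The other listed genes had no call at day 3.5 in the authors' deposited table. The highest of them at that day were BSG, an inducer of MMP genes, at 306 and 287 FPKM, CDH1 at 206.5 and 167 and APP at 186 and 189, the last 2 of them substrates of ADAM10. TSPAN14, which escorts ADAM10 to the cell surface, was at 51.0 and 35.5 FPKM (change 0.51, SE 0.51). FN1, the fibronectin gene, was at 84.9 and 38.0 (change 1.14, SE 0.88), and PCOLCE, which enhances the procollagen C-proteinase, at 16.1 and 14.0.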

How the data were processed

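RNA of H9 cells was sequenced in 4 groups of 2 libraries. Per the submitters' processing notes, the authors used Cufflinks with hg19; aligner, annotation, strand setting and versions: not given in the sources used here. Per the file headers, the deposited table of each day holds an FPKM value per group, the log2 of 60 kPa over 400 Pa, the authors' statistic (a score), and their p-value with its q-value. Depth per library is unknown. The plan was to use the authors' comparison unless values per library were given, and none were.

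Genes were matched by symbol, using the row with the highest mean where a symbol had 2 rows (ADAM12). Merged loci were left out. The set and the lists were chosen with earlier results of these data known. Counts cover genes that the authors tested and that had 1 FPKM or more in a group. Described in full were genes with q or p below 0.05, the 6 largest changes per direction and day, the 5 highest levels, and MMP2, MMP9, MMP14, ADAM10, ADAM17 and the TIMP genes whatever their result. Related genes were named where called, or as the highest of their list, and 1 of them is not reported here. Genes below 1 FPKM and the printed promoters were chosen after their values were seen. The code for the difference between days was tested on simulated data drawn from the implied errors, which does not test those errors. Overlapping genes came from GENCODE release 29. Alternatives were other pseudocounts, FPKM minimums and q thresholds, a new adjustment, a fold minimum, centring and merged loci. Locus starts are 1-based. The software was Python 3.11.15 with scipy 1.17.1, numpy 2.4.6 and pandas 2.3.3, and matplotlib 3.10.9 for plots.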

Additional observations from a re-analysis of the deposited data

How the results depend on the processing

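The count of 2 called genes at day 3.5 and of 0 at day 0 was the same at q thresholds of 0.1 and 0.01, without an FPKM minimum and with one of 5. It was also the same with a new adjustment, a minimum fold of 2 and merged loci included. No gene of the set passed the comparison of days when only genes with at least 5 FPKM in every group were used (12 genes of the set among 8256). The median change of the set at day 3.5, 0.28, was 0.32 and 0.30 with pseudocounts of 0.1 and 0.5, 0.24 when centred on the median gene, 0.39 with a minimum of 5 FPKM and 0.17 without a minimum. At day 0, -0.10 became -0.12, -0.11, -0.13, -0.15 and -0.084 in the same order. The median difference between days on 400 Pa, 0.48, was 0.63 and 0.61 with pseudocounts of 0.1 and 0.5. On 60 kPa, 0.20 became 0.26 and 0.21, and 0.19 when centred. Of 144 recomputed changes of the genes described in full, 143 kept their sign, and that of ADAM17 at day 0 turned to -0.015 when centred. No paired analysis was possible because the tables give 1 value per group, and for the same reason leaving out a replicate was not run. Depth is unknown, so it cannot be said which low values rest on few reads.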

Other observations

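Loci that merge a protease gene with another gene were not counted in the set. ADAM15, merged with DCST1, measured 9.05 and 8.72 FPKM (400 Pa, 60 kPa) in undifferentiated cells and 11.3 and 12.1 in induced cells. ADAMTSL4, merged with AL356356.1, was at 1.11 and 0.875 and then at 2.07 and 0.629, with q = 0.828 at day 3.5 in the authors' deposited table.

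The locus of ADAM10 holds other genes with high values. RP11-123C21.1 was at 136 and 162 FPKM in undifferentiated cells and at 178 and 135 in induced cells, above ADAM10 itself in all 4 groups. A snoU13 gene in that locus was at 843.6 FPKM on 400 Pa at day 3.5 and listed at 0 on 60 kPa, while ADAM10 was at 40.2 and 36.4. Because FPKM is scaled to length, a short gene can be listed high on few reads, and its read counts are unknown. In the locus of MMP1, MMP3 and MMP10, AP000619.5 measured 7.71 FPKM (400 Pa) and 0.0428 FPKM (60 kPa) at day 0, while the 3 protease genes were below 0.2 there.

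IAH1, which overlaps ADAM17 on the opposite strand, was at 22.4 and 22.7 FPKM in undifferentiated cells and at 29.8 and 14.8 in induced cells, a change of 0.96, while ADAM17 had a change of -0.05.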
